A study of Mus musculus with 29 samples.

Results

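The constitutive proteasome of mouse cardiac fibroblasts was followed at the level of its transcripts. The genes were the protein-coding entries of the count table whose symbol starts with Psm, a letter from a to g and a number, without the inducible subunits Psmb8, Psmb9 and Psmb10. This rule gave 48 of 55357 genes. They were 7 alpha-ring and 7 beta-ring genes of the 20S core, 6 genes of the 19S ATPase ring, 3 other genes of the 19S base, 8 genes of the 19S lid, 7 genes for assembly chaperones and 6 for activators or regulators. Psma8 and Psmb11 encode the testis form of a core alpha subunit and the thymus form of a core beta subunit. Psmc3ip and Psme3ip1 match only in name, since they encode a meiotic recombination factor and a protein that binds an activator subunit. The rule itself uses names and no measured value. Counts came from 29 RNA-seq libraries of primary cardiac fibroblasts, the collagen-making cells of the heart. Cells of aged mice (ACF) and of young mice (YCF) had been kept for 48 h on DECIPHER substrates, which set heart extracellular matrix in a hydrogel, or had been taken fresh. The groups were ACF on StiffA, SoftA, StiffY and SoftY and fresh ACF, then YCF on the same 4 substrates and fresh YCF. Names give the gel as soft or stiff and the matrix as that of aged (A) or young (Y) heart. Each group held 3 libraries, except YCF on SoftY with 2. The labels call the libraries biological replicates without tying them to animals, and give neither strain nor age in months, so each p-value reflects how these libraries vary among themselves, which may be partly technical.

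Proteasomes degrade proteins that carry ubiquitin chains. In the 20S core, rings of alpha subunits guard a chamber in which the beta subunits encoded by Psmb5, Psmb6 and Psmb7 cut peptide bonds. The 19S particle binds, unfolds and deubiquitinates substrates, PA28 and PA200 are alternative caps, and dedicated chaperones build the rings. When proteasome activity is limiting in mammalian cells, the transcription factor NFE2L1 raises many of these genes together through antioxidant response elements.

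Start-site sequence is shown for 4 genes (Psmb5, Psmd8, Psmd11 and Psmd10) whose culture change was called different between aged and young cells. The calls for Psmd11 and Psmd10 did not hold in every alternative fit, and Psmd5 and Psmc3ip, also called, are not shown. Psmb6 is shown as a gene called lower in aged than in young cells both fresh and cultured. Each run holds 250 bases before and 50 bases from the start of the gene, 5′ to 3′ on the gene's strand, from RefSeq on build GRCm38.p6. Capitals mark matches on either strand to TGACNNNGC (the antioxidant response element core), CCAAT (the CCAAT box), CCGGAA (the core bound by ETS factors) or GGGCGG (the GC box), and no matches overlapped in these 5 runs.
Psmb5 (chr14:54617946-54618245, minus strand): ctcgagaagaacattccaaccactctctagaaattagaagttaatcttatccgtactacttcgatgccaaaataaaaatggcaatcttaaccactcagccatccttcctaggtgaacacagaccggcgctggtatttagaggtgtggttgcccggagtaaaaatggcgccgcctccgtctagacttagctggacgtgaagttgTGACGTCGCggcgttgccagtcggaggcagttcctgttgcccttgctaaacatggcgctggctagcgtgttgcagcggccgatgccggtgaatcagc
Psmd8 (chr7:29180624-29180923, minus strand): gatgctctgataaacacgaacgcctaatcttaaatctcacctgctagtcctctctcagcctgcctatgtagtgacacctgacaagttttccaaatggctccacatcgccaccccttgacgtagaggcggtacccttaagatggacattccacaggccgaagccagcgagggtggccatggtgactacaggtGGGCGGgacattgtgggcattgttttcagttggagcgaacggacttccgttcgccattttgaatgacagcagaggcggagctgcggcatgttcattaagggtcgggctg
Psmd11 (chr11:80428365-80428664, plus strand): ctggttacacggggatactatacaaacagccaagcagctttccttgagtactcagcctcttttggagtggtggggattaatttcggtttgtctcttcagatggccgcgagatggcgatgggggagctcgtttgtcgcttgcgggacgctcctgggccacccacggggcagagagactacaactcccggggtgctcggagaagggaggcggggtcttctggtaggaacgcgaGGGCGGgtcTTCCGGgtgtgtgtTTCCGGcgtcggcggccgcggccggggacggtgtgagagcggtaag
Psmd10 (chrX:140956662-140956961, minus strand): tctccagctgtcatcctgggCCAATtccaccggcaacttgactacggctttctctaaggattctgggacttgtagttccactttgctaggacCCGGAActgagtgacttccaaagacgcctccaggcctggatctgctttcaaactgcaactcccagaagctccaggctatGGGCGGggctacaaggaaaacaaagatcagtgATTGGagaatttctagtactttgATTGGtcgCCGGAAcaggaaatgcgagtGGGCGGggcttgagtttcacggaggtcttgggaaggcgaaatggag
Psmb6 (chr11:70525107-70525406, plus strand): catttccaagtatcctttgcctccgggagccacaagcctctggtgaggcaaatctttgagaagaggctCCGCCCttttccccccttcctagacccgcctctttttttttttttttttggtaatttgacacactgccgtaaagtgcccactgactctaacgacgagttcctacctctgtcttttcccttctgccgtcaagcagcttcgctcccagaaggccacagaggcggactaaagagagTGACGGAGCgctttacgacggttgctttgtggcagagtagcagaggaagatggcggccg
Psmb5 held 1 antioxidant response element core and no other searched motif. Psmb6 held 1 such core and 1 GC box, and Psmd8 a single GC box. Psmd11 held 2 ETS cores and 1 GC box, and Psmd10 held 3 CCAAT boxes, 2 ETS cores and 2 GC boxes. RefSeq starts were matched for 40 of the 48 genes, with 44 start sites. The ETS core stood in 52.3% of these 44 windows, against 14.9% of all 32851 windows of the same length. For the GC box the shares were 54.5% and 35.7%, for the antioxidant response element core 13.6% and 12.4%, and for the CCAAT box 34.1% and 37.4%. A match is a run of letters and not a measured binding site.

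Levels are given as CPM, the counts relative to the scaled library total. Per kilobase of the principal transcript, the most abundant transcript in fresh ACF was Psma7, which encodes alpha4, at 678 ± 29.3 CPM per kb (SD, n = 3), and in fresh YCF it reached 732 ± 56.1 CPM per kb. It was followed by Psmb6, the caspase-like subunit beta1, at 517 ± 34.9 in fresh ACF and 577 ± 25.7 CPM per kb in fresh YCF. The other catalytic subunits lay far lower on this scale. Psmb5, the chymotrypsin-like subunit, stood at 55.4 ± 4.51 in fresh ACF and 31.9 ± 0.593 CPM per kb in fresh YCF, and Psmb7, the trypsin-like subunit, at 45.6 ± 6.21 and 38.6 ± 1.76 CPM per kb in the same groups. Transcripts of subunits that stand in equal number in the core thus had unequal measured levels per length. An annotated transcript length need not be the length expressed, and Psmb7 overlaps the gene Nek6, so that its counts are uncertain. In the 19S base the scaffold gene Psmd2 led with 324 ± 17.3 in fresh ACF and 359 ± 14.6 CPM per kb in fresh YCF. Among activators and chaperones the levels ran down to 4.98 ± 0.298 CPM per kb for Psme4 (PA200) in fresh ACF. Psmb11 had 3 counts over all libraries, those in cultured ACF, and Psma8 had 75, so that 46 of the 48 genes were tested in every fit.

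Libraries held 1192668 to 3275089 counts, and 10 CPM stood for 12.02 to 34.6 counts. Every library expressed the fibroblast markers, and none of the 8 was at 0 in any group. The 6 lymphocyte markers summed to at most 1.03 CPM. YCF on SoftA replicate 3 stood farthest from its group, with an SD of its gene-wise log2 deviations of 0.534 against 0.313 to 0.442 in the other libraries. Some genes are uncertain because reads may be shared with copies or overlapping genes and the strand setting is not given in the sources used here. Psme2b is a near copy of Psme2, the pseudogene Psma5-ps had 3378 counts beside 4705 for Psma5, and Psmb6-ps2 had 241 beside 21951 for Psmb6. Of the 48 genes, 22 overlap another annotated gene, and for 7 the partner has over 10% of their counts. Psmb7 is the extreme case, with 2195 counts beside 20088 for the overlapping gene Nek6, and Psmc3, Psmd13, Psme1 and Psmc3ip belong to the same 7.

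**Figure D1:**
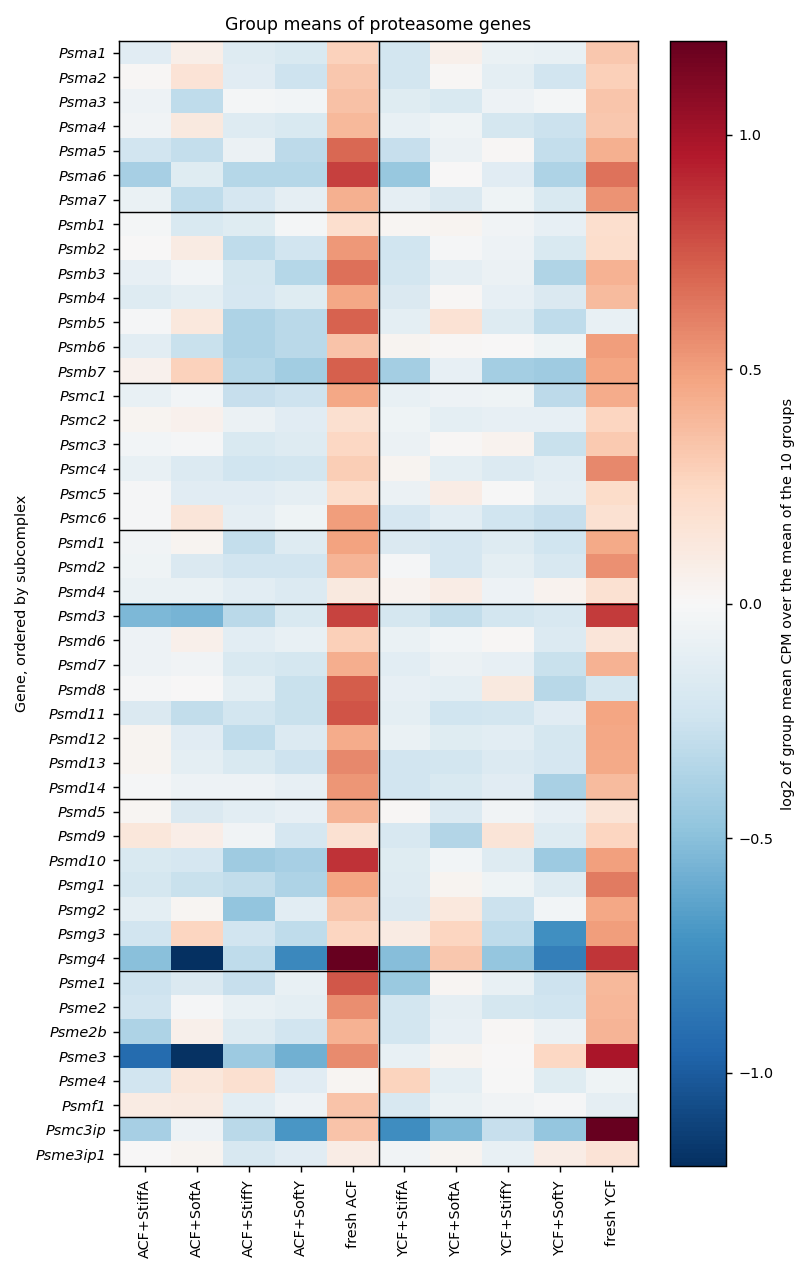
Mean CPM of 46 genes in the 10 groups, as the log2 ratio to the mean of the 10 groups (colour; range clipped at 1.2 either way), with genes ordered by subcomplex and lines between subcomplexes. The columns of fresh ACF and fresh YCF are higher than the cultured columns for most genes, with Psmb5 and Psmd8 of fresh YCF among the exceptions.

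Cultured and fresh cells were compared within each cell age to ask how 48 h on a substrate changed the proteasome transcripts. Nearly the whole set was lower in cultured cells at both ages. The 48 genes without Psmc3ip and Psme3ip1, called the proteasome sum here, added up to 6028, 6491 and 6878 CPM (lowest, median and highest of 12 libraries) in cultured ACF, against 9457, 9781 and 9855 CPM in fresh ACF. In cultured YCF the sums were 6156, 6661 and 6900 CPM (11 libraries), against 9204, 9342 and 9700 CPM in fresh YCF. Fresh and cultured libraries did not overlap at either age. Unlike this sum, the 46 tested genes include Psmc3ip and Psme3ip1 and leave out Psma8 and Psmb11. In aged cells 41 of 46 tested genes were lower in culture and 0 higher by edgeR's quasi-likelihood test at an adjusted p under 0.05, where 32.5% of all genes tested were lower and 29.9% higher. In young cells 39 of 46 were lower and 0 higher, where 29.9% of all genes were lower and 27.1% higher. The median log2 fold change over the 46 was -0.59 in aged cells and -0.55 in young cells, beside -0.01 and -0.03 over all genes. For 36 genes every cultured ACF library lay below every fresh ACF library (23.2% of all genes), and for 26 every cultured YCF library lay below every fresh YCF library (19.3% of all genes). Without scaling factors, on library totals alone, the median of all genes moved to 0.06 in aged and -0.14 in young cells, and 39 and 42 of the 46 genes were lower. Fresh libraries carry 1 letter in the library names and each substrate another, so any step of preparation that went by letter is confounded with culture, and the pair cannot be told apart. Nor can bulk samples separate fewer cells of a type from less RNA per cell. Marker sums moved as well: the 12 myeloid markers summed to 23.9 to 42.8 CPM in cultured ACF and 395 to 438 CPM in fresh ACF, and to 26.3 to 67.8 CPM in cultured YCF and 214 to 224 CPM in fresh YCF. Of 9 tested myeloid markers 9 were lower in cultured ACF and 8 in cultured YCF. The 8 fibroblast markers summed to 19458 to 26632 CPM in cultured ACF and 6473 to 6925 CPM in fresh ACF, and to 23668 to 31595 CPM in cultured YCF and 8004 to 8538 CPM in fresh YCF. Collagen genes carried these sums, Col1a1 averaging 10519 CPM in cultured ACF and 257 CPM in fresh ACF. Of the 8 markers 5 were higher and 2 lower in cultured ACF, and 6 higher and 1 lower in cultured YCF; Dcn averaged 2113 CPM in cultured ACF and 3759 CPM in fresh ACF, and Pdgfra 880.3 and 1516 CPM. Of 7 tested endothelial markers 5 were lower and 1 higher in cultured ACF, and 6 lower and 1 higher in cultured YCF. Their part in the result was not tested.

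**Figure D2:**
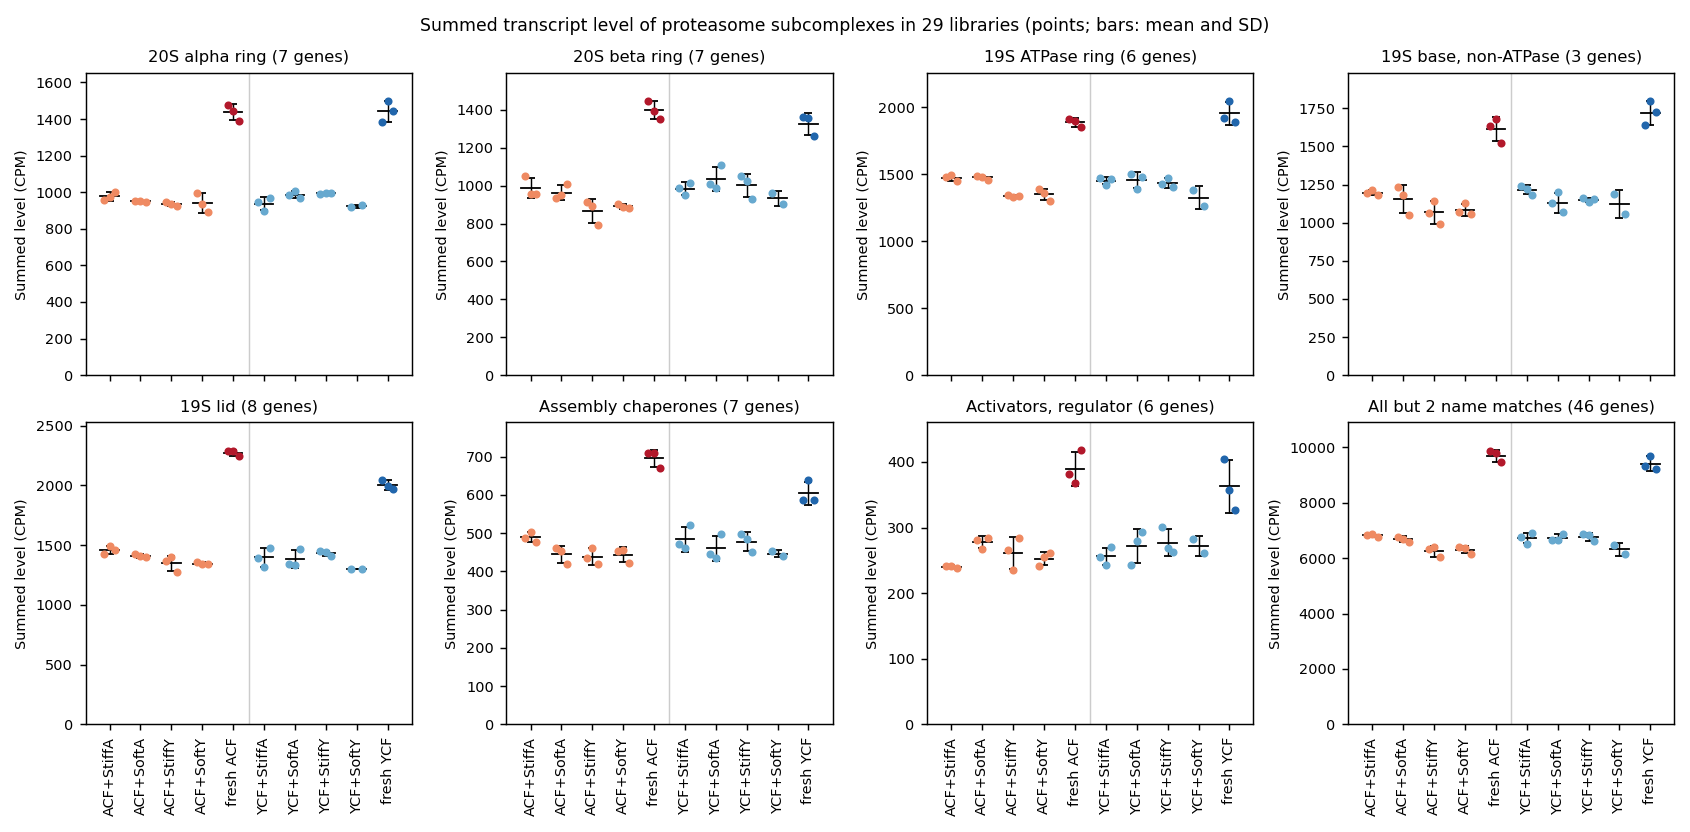
Summed CPM of each subcomplex in the 10 groups; points are libraries, the horizontal line and bar are the mean and SD. In all 8 panels the cultured libraries of an age lie below the fresh libraries of that age; the 19S lid sum is higher in fresh ACF (2244 to 2287 CPM) than in fresh YCF (1966 to 2045 CPM).

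In the 20S core nearly every gene fell. In the alpha ring 7 of 7 genes were lower in culture at both ages. Psma6, which encodes alpha1, measured 68.2, 73.2 and 105.5 CPM (lowest, median and highest) in cultured ACF, against 155, 161 and 176 CPM in fresh ACF, a log2 fold change of -1.12 ± 0.09 (adjusted p = 2.6e-12). In cultured YCF it measured 59.5, 79.1 and 102 CPM, against 141, 145 and 151 CPM in fresh YCF (-0.89 ± 0.09). The cultured libraries stayed below the fresh ones at both ages. Psma7 (alpha4) changed by -0.60 ± 0.08 in aged and -0.67 ± 0.08 in young cells, and Psma5 (alpha5), whose counts may be shared with its pseudogene, by -0.90 ± 0.10 and -0.58 ± 0.10. The other 4 alpha genes lay between -0.46 and -0.37 in aged cells and between -0.48 and -0.41 in young cells. In the beta ring 7 of 7 genes fell in aged and 6 of 7 in young cells. Psmb3 (beta3) changed by -0.83 ± 0.09 in aged and -0.61 ± 0.10 in young cells, and Psmb1 (beta6) by -0.30 ± 0.07 and -0.22 ± 0.07, the smallest beta-ring changes that were called; the young call was lost in 5 of 20 alternative fits. Of the catalytic subunits, Psmb6 changed by -0.61 ± 0.07 and -0.50 ± 0.07, and Psmb7 by -0.81 ± 0.16 and -0.82 ± 0.17. Psmb5 fell in aged cells (-0.85 ± 0.15, adjusted p = 1.99e-05) and was not called in young cells (-0.01 ± 0.17, adjusted p = 0.947).

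In the 19S particle Psmd3 had the largest change at both ages. This gene, which encodes the lid subunit Rpn3, measured 63.3, 93.5 and 108 CPM in cultured ACF, against 197, 197 and 211 CPM in fresh ACF (-1.22 ± 0.10, adjusted p = 3.75e-12). In cultured YCF it measured 80.9, 98.8 and 107 CPM, against 197, 202 and 216 CPM in fresh YCF (-1.06 ± 0.10). Its fresh level was thus about the same at both ages, and no cultured library came near it. Psmd11 (Rpn6), a lid subunit that helps hold the 19S to the 20S, changed by -0.998 ± 0.08 in aged and -0.65 ± 0.08 in young cells, and Psmd14 (Rpn11), the lid deubiquitinase, by -0.59 ± 0.07 and -0.62 ± 0.07. All 8 lid genes fell in aged cells and 7 of 8 in young cells, where Psmd8 was not called (0.10 ± 0.09) and the call for Psmd6 (Rpn7) was lost in 7 of 20 alternative fits. In the ATPase ring, the motor that unfolds substrates, 6 of 6 genes fell at both ages, from Psmc1 (Rpt2) at -0.63 ± 0.06 in aged and -0.57 ± 0.06 in young cells to Psmc2 (Rpt1) at -0.22 ± 0.07 in aged cells and Psmc5 (Rpt6) at -0.24 ± 0.07 in young cells. Psmc4 (Rpt3) changed by -0.48 ± 0.07 in aged and -0.67 ± 0.07 in young cells. The scaffold genes Psmd1 (Rpn2) and Psmd2 (Rpn1) changed by -0.60 ± 0.06 and -0.58 ± 0.06 in aged cells, and by -0.65 ± 0.06 and -0.68 ± 0.07 in young cells. The ubiquitin receptor gene Psmd4 (Rpn10) fell in aged cells (-0.23 ± 0.08) and was not called in young cells (-0.16 ± 0.08, adjusted p = 0.102). Its aged call was lost in 4 of 21 alternative fits, and a difference between the ages in its culture change was not called.

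Of the 7 assembly chaperone genes, 4 fell in aged and 6 in young cells. Psmd10 (gankyrin, a chaperone of the 19S base) fell by 1.17 ± 0.11 on the log2 scale in aged and by 0.67 ± 0.11 in young cells. Psmg1 (PAC1), which acts in a dimer that starts the alpha ring, changed by -0.76 ± 0.12 in aged and -0.70 ± 0.12 in young cells. Psmg4 (PAC4) had the largest change of the 46 genes in aged cells (-1.94 ± 0.30; -1.23 ± 0.32 in young cells), but at low level: 0 to 6.46 CPM in cultured ACF and 9.99 to 16.9 CPM in fresh ACF. Its partner Psmg3 (PAC3), at or under 7.22 CPM in every library, was not called at either age, and Psmg2 (PAC2) was called in young cells (-0.55 ± 0.22) and not in aged cells (-0.50 ± 0.22, adjusted p = 0.0513), the young call being lost in 7 of 20 alternative fits, DESeq2 among them. Psmd9 (p27) was called in young cells (-0.41 ± 0.15) and not in aged cells (-0.20 ± 0.15). Among activators, the PA28 alpha and beta genes Psme1 and Psme2 fell at both ages, by 0.93 ± 0.18 and 0.68 ± 0.10 in aged cells and by 0.59 ± 0.18 and 0.59 ± 0.11 in young cells. Psme2b, the near copy of Psme2, changed by -0.59 ± 0.07 and -0.50 ± 0.08. Psme3 (PA28 gamma) changed by -1.34 ± 0.34 in aged and -0.91 ± 0.32 in young cells and spread widely, with 105, 38.7 and 31.5 CPM in the 3 fresh YCF libraries. Without the first of these it was not called in young cells, nor was it by DESeq2. Psme4 (PA200) stood apart from the other activators, with 25.1 to 43.0 CPM in cultured ACF and 30.4 to 34.3 CPM in fresh ACF (-0.03 ± 0.15), and 0.04 ± 0.15 in young cells. The young change of Psmf1 (PI31, which inhibits the core in vitro) was 0.03 ± 0.11, and the aged one -0.34 ± 0.10 (adjusted p = 0.00488). Psme3ip1 was not called at either age, and Psmc3ip fell at both (-0.72 ± 0.24 in aged and -1.92 ± 0.21 in young cells).

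**Figure D3:**
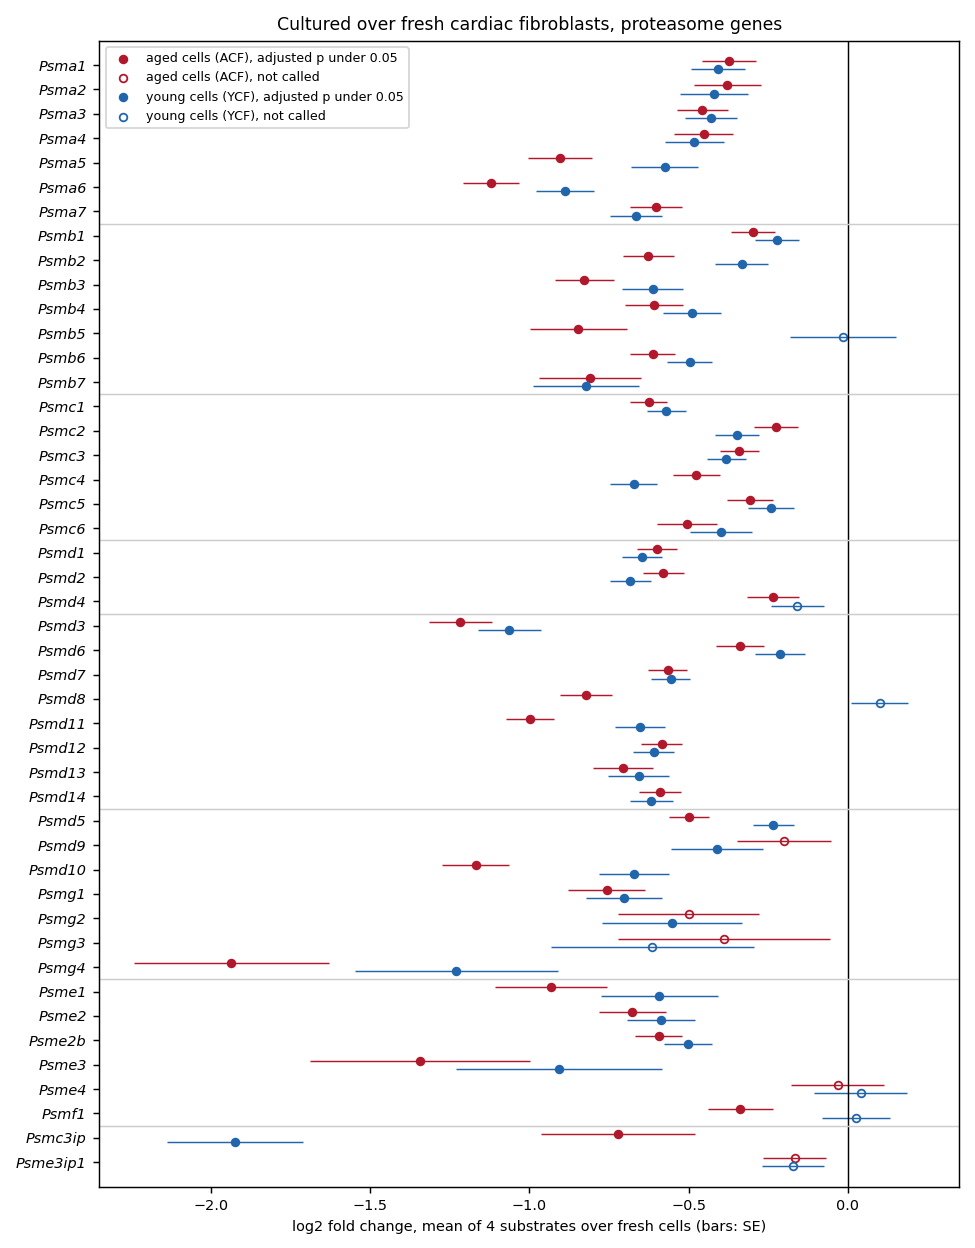
Log2 fold change of cultured over fresh cells for 46 genes, ordered by subcomplex, in aged cells (red) and young cells (blue); bars are SE and open circles were not called. Most points lie left of 0 in both colours, and the colours are farthest apart for Psmb5, Psmd8 and Psmc3ip.

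Whether the ages differed in this response was tested by the culture by age interaction, the culture change of ACF minus that of YCF. 6 of 46 genes were called, 5 lower and 1 higher, where 10.1% of all genes were lower and 10.5% higher. The share called was near the background, so this result is about single genes and not about the set. Without fresh YCF replicate 2 or fresh ACF replicate 1 the count was 3. On library totals alone, which moved the median of all genes to 0.19, the split was 4 higher and 2 lower, the 2 lower ones being Psmb5 and Psmd8. Psmd8 (Rpn12; ENSMUSG00000030591, chromosome 7, 28873613 to 28880127 in mm39) had 147, 168 and 207 CPM (lowest, median and highest) in cultured ACF, against 297, 301 and 302 CPM in fresh ACF. In cultured YCF it had 138, 178 and 200 CPM, against 143, 163 and 165 CPM in fresh YCF. Fresh ACF lay above all other libraries, while cultured and fresh YCF overlapped. The interaction was -0.92 ± 0.12 (adjusted p = 1.09e-06). Psmb5 (ENSMUSG00000022193, chromosome 14, 54851576 to 54855480) had the same pattern at a lower level, with 19.1, 26.98 and 41.3 CPM in cultured ACF, against 46.5, 48.7 and 54.3 CPM in fresh ACF. Its levels were 19.1, 27.8 and 40.9 CPM in cultured YCF, against 28.2, 28.6 and 29.2 CPM in fresh YCF, inside the cultured range. The interaction was -0.83 ± 0.23 (adjusted p = 0.0087). Both calls held in all 34 alternative fits.

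Psmd10, Psmd11 and Psmd5 fell at both ages and further in aged cells. Psmd10 had 43.0, 57.0 and 64.9 CPM in cultured ACF (lowest, median and highest), against 117, 124 and 136 CPM in fresh ACF. In cultured YCF it had 45.7, 59.9 and 77.0 CPM, against 95.0, 96.3 and 98.2 CPM in fresh YCF. The cultured levels overlapped between ages and the fresh levels did not. Its interaction of -0.50 ± 0.16 (adjusted p = 0.0225) lost its call in 3 of 34 alternative fits. Psmd11 had 156, 200 and 235 CPM in cultured ACF, against 383, 404 and 412 CPM in fresh ACF. In cultured YCF it had 174, 215 and 229 CPM, against 318, 327 and 342 CPM in fresh YCF. Its interaction of -0.35 ± 0.11 (adjusted p = 0.0293) lost its call in 14 of 34 fits. For Psmd5 (S5b, a chaperone of the 19S base) the interaction of -0.26 ± 0.09 (adjusted p = 0.0372) lost its call in 25 of 34 fits. The gene higher in the interaction was Psmc3ip, which is no proteasome subunit (1.202 ± 0.33, adjusted p = 0.00822). Myeloid markers moved in the same direction, with 5 of 9 lower in the interaction, and 4 of 7 endothelial markers were higher. Of the 8 fibroblast markers 4 were higher and 2 lower, and of 3 tested pericyte markers 2 were higher and 0 lower. The part of these markers in the results was not tested.

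Fresh ACF and fresh YCF were compared to ask what age changed before culture. On scaled library totals the set as a whole was at a like level. All 48 genes summed to 9539, 9863 and 9939 CPM in fresh ACF. The sums of 9297, 9440 and 9813 CPM in fresh YCF overlapped with these. As a share of unscaled library counts the 48 genes made up 0.915% to 0.944% in fresh ACF and 0.996% to 1.038% in fresh YCF. These shares did not overlap, and those of fresh ACF were lower. Single genes differed in both directions. 8 of 46 were higher and 4 lower in fresh ACF, where 15% of all genes were higher and 16.8% lower, and the median of -0.01 over the 46 stood beside -0.02 over all genes. For 13 genes every fresh ACF library lay above every fresh YCF library and for 4 every one lay below, where 23.6% and 21.4% of all genes did. On library totals alone 2 were higher and 9 lower, with the median of all genes at -0.14; Psmb5 and Psmd8 were higher and Psmb6, Psmc4, Psmd2 and Psmc3ip lower under both scalings. Psmb5 rose by 0.76 ± 0.14 (adjusted p = 0.000875) and Psmd8 by 0.90 ± 0.08 (adjusted p = 4.86e-07), which are folds of 1.69 and 1.87. The 3 libraries of one age did not overlap with those of the other for either gene, and these are the same fresh values that enter the interaction. Psmb2 (beta4) had 222, 202 and 224 CPM in fresh ACF, against 173, 171 and 177 CPM in fresh YCF (0.28 ± 0.07), and Psmc6 (Rpt4) had 218, 224 and 231 CPM, against 169, 187 and 185 CPM (0.28 ± 0.07). Psmd11 rose by 0.24 ± 0.06 and the chaperone genes Psmd10 and Psmd5 by 0.35 ± 0.09 and 0.21 ± 0.06. Psmf1 had 79.6, 69.5 and 76.4 CPM in fresh ACF, against 48.9, 56.9 and 58.7 CPM in fresh YCF (0.42 ± 0.12, adjusted p = 0.0144). These 6 genes were not called on library totals alone.

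Psmb6, Psmc4 and Psmd2 were lower in fresh ACF. Psmb6 had 428, 430 and 380 CPM in fresh ACF, against 456, 483 and 443 CPM in fresh YCF (-0.20 ± 0.06, adjusted p = 0.0292). Psmc4 had 414, 426 and 396 CPM, against 465, 561 and 479 CPM (-0.32 ± 0.07, adjusted p = 0.00256). Psmd2 had 993, 986 and 900.5 CPM, against 1015, 1100 and 1070 CPM (-0.18 ± 0.05, adjusted p = 0.0147). The ages did not overlap for these 3 genes, although the gap was narrow for Psmb6 and Psmd2, whose calls were each lost in 4 of 12 alternative fits. Psmc3ip, outside the proteasome, had 14.5, 10.4 and 14.6 CPM in fresh ACF, against 22.4, 32.3 and 31.0 CPM in fresh YCF (-1.15 ± 0.22). 0 of 7 alpha-ring genes were called by edgeR in fresh cells, and their log2 fold changes ran from -0.15 to 0.23. Of the genes followed in every comparison, Psmb7 stood at 0.21 ± 0.14, Psmd4 at -0.11 ± 0.08, Psmd14 at 0.11 ± 0.07, Psme1 at 0.32 ± 0.14, Psme2 at 0.12 ± 0.12, Psme3 at -0.46 ± 0.35 and Psme4 at 0.03 ± 0.19, and these 7 were not called. Myeloid markers were higher in fresh ACF, with 6 of 9 tested markers called, and fibroblast markers lower, with 5 of 8 lower and 2 higher. Their part in the differences was not tested.

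**Figure D4:**
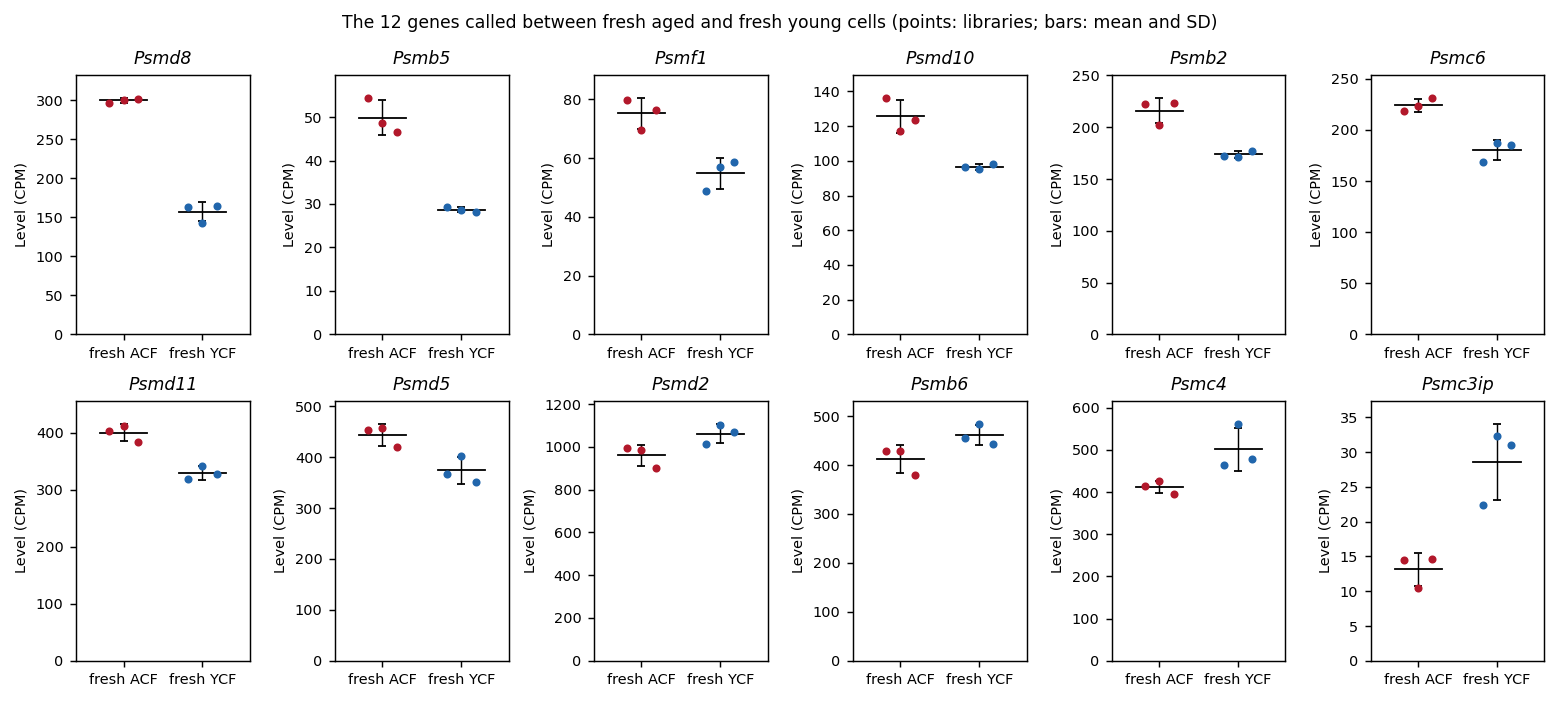
CPM of the 12 genes called between fresh ACF (red, left) and fresh YCF (blue, right), in order of log2 fold change; points are libraries, the line and bar are the mean and SD. The first 8 panels are higher in fresh ACF, led by Psmd8 with a mean of 299.8 against 157 CPM, and the last 4 are lower.

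The ages were next compared in culture. Over the 4 substrates, cultured ACF differed from cultured YCF in 3 of 46 genes, 1 higher and 2 lower, where 6.52% of all genes were higher and 8.5% lower. The median over the 46 was -0.03, beside -0.00 over all genes, and on library totals alone it was 0.01 with 2 higher and 2 lower. Without ACF on StiffA replicate 3 the count was 5. Psmb6 was again lower in aged cells, with 222, 272 and 302 CPM in cultured ACF (lowest, median and highest), against 289, 331 and 353 CPM in cultured YCF (-0.28 ± 0.05, adjusted p = 0.000325). The ranges overlapped only between 289 and 302 CPM, and the call held in all 30 alternative fits. Psme3 had 6.18, 14.6 and 40.2 CPM in cultured ACF, against 13.9, 24.95 and 56.4 CPM in cultured YCF (-0.86 ± 0.23, adjusted p = 0.0136), and it was not called without YCF on SoftY replicate 1 (adjusted p = 0.178). Psmd14 was higher in aged cells, with 167, 197 and 214 CPM in cultured ACF, against 145, 177 and 190 CPM in cultured YCF (0.17 ± 0.05, adjusted p = 0.0216), and it was not called without YCF on SoftY replicate 2 (adjusted p = 0.0786). Psmb5 (-0.04 ± 0.12), Psmb7 (0.25 ± 0.13), Psmd4 (-0.15 ± 0.06), Psmd11 (-0.07 ± 0.06), Psme1 (0.01 ± 0.14), Psme2 (0.06 ± 0.08) and Psme4 (-0.01 ± 0.09) were not called. Of the other genes that had differed in fresh cells, Psmd8 stood at 0.01 ± 0.06, Psmc4 at -0.10 ± 0.05 and Psmc6 at 0.20 ± 0.07, also not called. Library numbers 1 to 3 are young and 4 to 6 aged in every letter, so a handling order that followed the number cannot be told apart from age. By deviations from group means, 10 of 12 cultured ACF and 7 of 11 cultured YCF libraries correlated best with a library of their own number. If a number marks cells shared across substrates, the libraries of 1 age are not independent, and these p-values may be too small. No alternative fit took the number as the unit of replication. In the same comparison 7 of 8 fibroblast markers were lower and 6 of 7 endothelial markers higher in cultured ACF, and their part was not tested.

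Substrates were compared within each cell age to ask what gel stiffness and matrix age did. Each substrate carries its own letter in the library names. A step of preparation that went by letter thus cannot be told apart from the stiffness or matrix age of the substrate. In aged cells 4 of 46 genes were higher and 0 lower on matrix of aged heart, where 4.14% of all genes were higher and 3.3% lower. The median over the 46 was 0.15, beside -0.01 over all genes, 37 of the 46 folds were positive, and 17 genes had an unadjusted p under 0.05, 16 of them higher. The share of all genes with a positive fold or an unadjusted p under 0.05 is not given, here or below. Counts by these measures are thus not read as a result about the set. The proteasome sum was 6766, 6838 and 6878 CPM in ACF on StiffA and 6572, 6689 and 6779 CPM on SoftA, against 6028, 6333 and 6400 CPM on StiffY and 6152, 6365 and 6410 CPM on SoftY. Each of the 6 libraries on aged matrix lay above each of the 6 on young matrix. Psmb2 had 153, 153 and 147 CPM on StiffA and 139.6, 163 and 179.9 CPM on SoftA, against 119, 129 and 116 CPM on StiffY and 128, 117 and 142 CPM on SoftY (0.33 ± 0.08, adjusted p = 0.0126). The groups overlapped at the edge, with 1 library of SoftY above 1 of SoftA. Psmc1 (0.21 ± 0.06, adjusted p = 0.0229) had 284, 279.6 and 284 CPM on StiffA and 304, 310.2 and 268 CPM on SoftA, against 236, 264 and 242 CPM on StiffY and 258, 242 and 258 CPM on SoftY, without overlap. Psmd1 changed by 0.22 ± 0.06 (adjusted p = 0.026) and Psmb7, whose counts overlap Nek6, by 0.57 ± 0.17 (adjusted p = 0.0411). The number of genes called rests on single libraries. Without ACF on StiffY replicate 3 it was 0, and without ACF on SoftA replicate 2 or ACF on StiffA replicate 1 it was 1. It was 2 without any 1 of ACF on SoftY replicates 1 and 2, StiffY replicate 1, SoftA replicate 3 and StiffA replicate 2, 3 by DESeq2, and 1 (Psmb2) on library totals alone. Endothelial markers moved in the same comparison, with 4 of 7 higher on aged matrix. Of the 8 fibroblast markers 3 were higher and 2 lower there, and of 3 tested pericyte markers 0 were higher and 1 lower. The part of these markers was not tested.

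**Figure D5:**
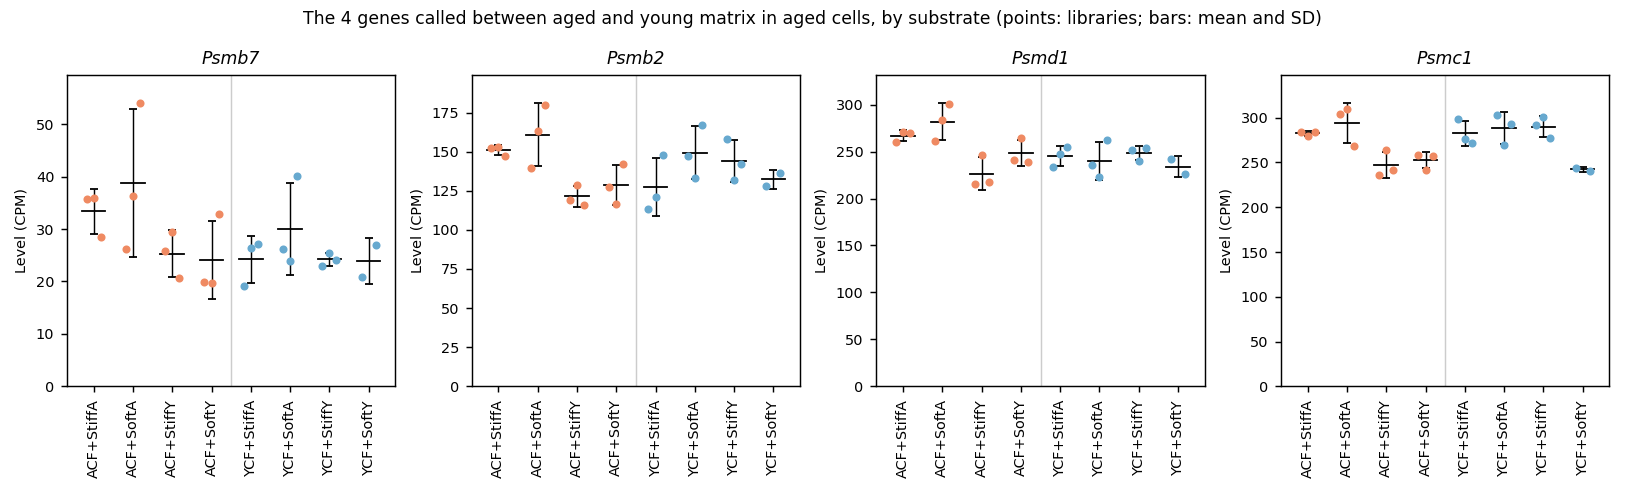
CPM of the 4 genes called between aged and young matrix in aged cells, by substrate, for ACF (left, orange) and YCF (right, blue); points are libraries, the line and bar are the mean and SD. In ACF the means on StiffA and SoftA exceed those on StiffY and SoftY in each panel, and the SoftA libraries of Psmb7 spread from 26.2 to 54.1 CPM.

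In young cells matrix age called 0 of the 46 genes by edgeR and 0 by DESeq2, with 0 at an unadjusted p under 0.05, where 1.67% of all genes were higher and 0.825% lower, and the median was 0.04. Psmb2 stood there at -0.01 ± 0.09, Psmc1 at 0.10 ± 0.06, Psmd1 at 0.01 ± 0.07 and Psmb7 at 0.15 ± 0.19. The difference between the ages in this response, tested as cell age by matrix age, called 0 genes (4 at an unadjusted p under 0.05, each higher), where 0.0234% of all genes were higher and 0.0701% lower. Psmb2 stood at 0.34 ± 0.12 (adjusted p = 0.454) and Psmd1 at 0.22 ± 0.09 in that test. A difference between aged and young cells in the response to matrix age is therefore not shown.

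Stiff over soft gel called 0 of 46 genes in aged cells (1 at an unadjusted p under 0.05), where 0.00779% of all genes were higher and 0.288% lower. In young cells it also called 0 (1 at an unadjusted p under 0.05), where 1.66% of all genes were higher and 1.9% lower, but without YCF on SoftA replicate 3 it called 1. The gene at an unadjusted p under 0.05 was Psme2b in aged cells (-0.17 ± 0.08) and Psmd8 in young cells (0.24 ± 0.09). StiffA over SoftY, the pair that joins both changes, called 0 genes in aged cells (7 at an unadjusted p under 0.05, 6 of them higher), with a median of 0.13, where 2.24% of all genes were higher and 1.97% lower; without ACF on StiffA replicate 3 it called 1. The proteasome sums of this pair did not overlap in aged cells, at 6766 to 6878 CPM on StiffA and 6152 to 6410 CPM on SoftY. In young cells the pair called 0 genes (2 at an unadjusted p under 0.05, Psmc1 at 0.22 ± 0.09 and Psme4 at 0.42 ± 0.20), where 2.99% were higher and 2.27% lower. The stiffness by matrix interaction called 0 genes in aged cells (4 at an unadjusted p under 0.05), where 0% of all genes were higher and 0.0234% lower. In young cells it called 0 (6 at an unadjusted p under 0.05, each lower), with a median of -0.19, where 0.498% were higher and 0.117% lower. The cell age by stiffness interaction called 0 genes (0 at an unadjusted p under 0.05), where 0.319% were higher and 0.467% lower. DESeq2 called 0 of the 46 genes in each comparison of this paragraph and in the cell age by matrix age test. Over the 10 genes followed in every comparison, the log2 fold changes by substrate ran from -0.15 (Psme1) to 0.19 (Psme3) for stiffness in aged cells, from -0.22 (Psme3) to 0.26 (Psme4) for stiffness in young cells, from -0.56 (Psme3) to 0.57 (Psmb7) for matrix age in aged cells and from -0.16 (Psme3) to 0.22 (Psmb5) for matrix age in young cells.

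Most proteasome genes with other names also fell with culture. Of 9 tested, 7 fell with culture in aged cells and 6 in young cells, with 0 higher, where 32.5% and 29.9% of all genes were lower. The receptor gene Adrm1 (Rpn13) changed by -0.54 ± 0.08 in aged and -0.55 ± 0.08 in young cells, the deubiquitinase gene Usp14 by -0.61 ± 0.07 and -0.58 ± 0.07, and the core maturation factor Pomp by -0.55 ± 0.08 and -0.20 ± 0.08. Sem1, a small lid subunit, fell in aged cells (-0.37 ± 0.12) and was not called in young cells (0.19 ± 0.13). It was at 59.2 to 96.5 CPM in cultured ACF and 90.8 to 98.2 CPM in fresh ACF, and at 55.7 to 98.6 CPM in cultured YCF and 63.0 to 69.8 CPM in fresh YCF. Its interaction was -0.56 ± 0.18, and that of Pomp -0.35 ± 0.11, the 2 of 9 that were called, where 10.1% of all genes were lower. In fresh cells 3 of the 9 were higher in aged cells (Sem1 0.47 ± 0.10, Pomp 0.22 ± 0.08 and Txnl1, a 19S-bound thioredoxin, 0.30 ± 0.08) and 1 lower (Uchl5, a 19S deubiquitinase, -0.45 ± 0.11), where 15% of all genes were higher and 16.8% lower; counts this small are not read as a result about the list. In culture 1 of the 9 was higher in aged cells, where 6.52% of all genes were higher.

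Among 14 genes of proteasome gene transcription and substrate delivery, 2 rose and 5 fell with culture in aged cells and 1 rose and 3 fell in young cells, where 32.5% of all genes fell in aged and 29.9% in young cells. These shares are near the background and are not a result about the list. Nfe2l1, the transcription factor of the proteasome genes, was not called with culture in aged cells (-0.20 ± 0.10) or in young cells (-0.09 ± 0.10). Nfe2l2, the oxidative stress factor, fell by 0.80 ± 0.07 in aged and 0.86 ± 0.07 in young cells. In fresh cells 2 of the 14 were higher in aged cells, where 15% of all genes were higher. In culture 3 of the 14 were lower in aged cells, where 8.5% of all genes were lower. Counts this small are not read as a result about the list. The inducible subunits, which replace Psmb5, Psmb6 and Psmb7 in the immunoproteasome, fell at both ages in 3 of 3 cases. Psmb8 changed by -1.69 ± 0.13 in aged and -1.30 ± 0.14 in young cells, Psmb9 by -0.88 ± 0.31 and -1.195 ± 0.29, and Psmb10 by -0.71 ± 0.12 and -0.91 ± 0.11. In fresh cells Psmb8 was higher (0.46 ± 0.13) and Psmb10 lower (-0.48 ± 0.13) in ACF, and Psmb9 was not called (-0.43 ± 0.32).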

How the data were processed

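RNA was measured in 29 libraries of fresh or cultured mouse cardiac fibroblasts, made from 20 ng of RNA with a low-input kit, per the labels' protocols. The authors deposited whole-number counts per gene for 55357 genes, counted with HTSeq per the file name; STAR 2.7.8a and build mm39 are named in the submitters' processing notes, while for HTSeq's settings, strand and annotation release the sources used here give nothing. Groups came from the labels. The members and gene lists were chosen with earlier results of these data known, so no pattern here is independent support for those results.

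From the counts, edgeR 4.0.16 (R 4.3.3; limma 3.58.1) was run with TMM factors and its group-wise filter on low counts, using quasi-likelihood F tests and p-values adjusted by Benjamini-Hochberg over all genes tested and calls at 0.05. Fresh age used 6 libraries (11786 genes), those within culture 23 libraries (12841 genes), and those of culture over fresh, with the interaction, all 29 (13523 genes). Errors of log2 fold changes are SE, those of levels SD. CPM is the deposited count over the TMM-scaled library total, computed here. Libraries held 1192668 to 3275089 counts, which limits genes of low level. The steps were tested on simulated data with independent libraries and few changed genes, unlike the culture comparisons. That test cannot judge the scaling or the independence of the libraries here. Coordinates of genes are those of the deposited table (mm39); start-site sequences are from RefSeq on GRCm38.p6, and no coordinates were converted. Transcript lengths are those of principal transcripts in a GENCODE annotation.

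Folds were given for called genes of at least 10 CPM with the largest change in their subcomplex (up to 3 each), for 10 genes followed throughout (Psmb5, Psmb6, Psmb7, Psmd4, Psmd14, Psmd11 and Psme1 to Psme4) and for each gene called between substrates; Psmg2, Psmg3, Psmg4, Psmd9 and other genes outside this rule were chosen after their values were seen. Alternatives were other scalings (library totals alone were added after seeing the data), no filter, DESeq2 1.42.0, other sets of libraries in the fit, replicate blocks and leaving out each library. Replicate numbers were not taken to pair libraries. A list of ubiquitin genes is not reported here.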

Additional observations from a re-analysis of the deposited data

Results flagged for a closer look

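The culture change differed between aged and young cells by the culture by age interaction (edgeR, adjusted p under 0.05) for 6 of the 46 genes tested, 1 higher and 5 lower, where 10.5% of all genes were higher and 10.1% lower; the share called is not above that of all genes. The interaction, ACF minus YCF on the log2 scale, was -0.92 for Psmd8 and -0.83 for Psmb5, which fell in aged cells and were not called in young cells. It was -0.50 for Psmd10, -0.35 for Psmd11 and -0.26 for Psmd5, which fell at both ages. It was 1.202 for Psmc3ip, which fell further in young cells. The calls for Psmd8, Psmb5 and Psmc3ip held in all 34 alternative fits, while those for Psmd10, Psmd11 and Psmd5 were lost in 3, 14 and 25 of them. The same fresh libraries enter the interaction, the culture changes and the fresh age difference, so these values are not separate evidence.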

How the results depend on the processing

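On library totals alone, the median log2 fold change of the 46 genes was -0.14 for fresh age, -0.67 for culture in young cells and 0.12 for the interaction, and matrix age in aged cells called 1 gene. Factors of this kind move all genes together, and the median of all genes moved with them. With the library number as a replicate block, cultured age called 5 genes, stiffness in young cells 1 and stiffness by matrix in young cells 1; the cause was not tested. With the replicate number of the titles as a block the counts were 12 for fresh age, 42 and 40 for culture in aged and young cells, 6 for the interaction, 3 for cultured age and 4 for matrix age in aged cells. The numbers did not meet the bar for pairing, every pair over 0.1: same-numbered fresh libraries correlated at -0.07 to 0.09 in their deviations from group means, and 2 of 6 libraries correlated best with their own number. In culture 13 of 77 pairs with the same title number exceeded 0.1. By library number 4 of 18 pairs did in cultured ACF and 9 of 15 in cultured YCF, and 10 of 12 and 7 of 11 libraries correlated best with their own number, a hint from the data that the library number may mark something shared; with it as a block, matrix age in aged cells called 6 genes. Leaving out 1 library at a time gave 9 to 14 calls for fresh age, 39 to 42 and 34 to 40 for culture in aged and young cells, 3 to 6 for the interaction, 2 to 5 for cultured age, 0 to 5 for matrix age in aged cells, 0 to 1 for stiffness in young cells and 0 to 1 for StiffA over SoftY in aged cells. Of the medians, those of the interaction and of cultured age changed sign on library totals alone. With 1 library left out, the median of fresh age ran from -0.01 to 0.03. The medians of stiffness at both cell ages and of stiffness by matrix in aged cells also took either sign. So did those of matrix age and of StiffA over SoftY in young cells. No called gene changed direction under the alternatives run. Depth limits the genes under 10 CPM, such as Psmg3 and Psmg4.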
